A study of Mus musculus with 4 samples.

Results

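The sarcomeric myosin heavy chains are the motor proteins of the thick filament of striated muscle. The members were the 8 genes Myh1, Myh2, Myh3, Myh4, Myh6, Myh7, Myh7b and Myh8, found by the gene name that the mRNA table gives each transcript. They made up 8 of 21878 genes and 22 of 75959 transcript rows, and the rows of a gene were summed. RNA was measured in C3H10T1/2 cells, a mouse mesenchymal stem cell (MSC) line derived from embryos. Untreated cells (replicates 1 and 2) were compared with cells given 20 µM 5-AZA (5-azacytidine, a cytidine analogue that lowers DNA methylation) for 72 h and then kept in fresh medium for another 21 days (replicates 101 and 102). Levels were FPKM, a fragment count scaled to transcript length and library size, as deposited by the authors. The labels name no time in culture for the untreated cells, so treatment and time in culture cannot be told apart.

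Each heavy chain carries an ATP-hydrolysing motor head and a long coiled tail, and chains pair and pack by their tails into the thick filament. Skeletal muscle changes its chains as it develops, from embryonic Myh3 and neonatal Myh8 to the adult fast chains Myh1 (type IIx), Myh2 (type IIa) and Myh4 (type IIb), while slow fibres carry Myh7. Heart muscle uses Myh6 (alpha) and Myh7 (beta), and Myh7b is an ancient relative of that pair. The comparison asks which of these developmental, fast, slow and cardiac chains were present after 5-AZA, and in what proportions.

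The genes lie in 3 places in the GRCm38.p6 assembly. The skeletal cluster on chromosome 11 runs in the order Myh3 (chr11:67078273-67102291), Myh2 (chr11:67171027-67197517), Myh1 (chr11:67200102-67224577), Myh4 (chr11:67237812-67260447) and Myh8 (chr11:67277124-67308634), followed by Myh13, which is not among the members. Myh6 (chr14:54941921-54968017) and Myh7 (chr14:54970684-54994626) are neighbours, and Myh7b stands alone (chr2:155611243-155634307). The labels name the mm9 build, but 2349 of 2356 transcript positions listed beside the circRNAs fell inside the span of the named gene in GRCm38.p6, give or take 5000 bases, so that assembly was used for coordinates.

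Promoter windows from RefSeq (GRCm38.p6, 250 bases before to 50 bases after a start, gene strand) were found for all 8 chains. The windows of Myh3, Myh1 and Myh7 are printed because these 3 genes had the highest level of the embryonic, fast and slow classes after 5-AZA. They read 5′ to 3′, with capitals marking matches to TATAAA, matches to the MEF2 motif and a 14-base string shared by Myh1, Myh2, Myh4 and Myh8.
Myh3: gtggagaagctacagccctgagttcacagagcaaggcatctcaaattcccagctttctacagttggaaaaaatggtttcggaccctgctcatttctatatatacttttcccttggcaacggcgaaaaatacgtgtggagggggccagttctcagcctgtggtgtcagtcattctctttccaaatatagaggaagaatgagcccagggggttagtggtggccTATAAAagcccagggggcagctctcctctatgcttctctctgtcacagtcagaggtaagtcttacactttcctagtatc
Myh1: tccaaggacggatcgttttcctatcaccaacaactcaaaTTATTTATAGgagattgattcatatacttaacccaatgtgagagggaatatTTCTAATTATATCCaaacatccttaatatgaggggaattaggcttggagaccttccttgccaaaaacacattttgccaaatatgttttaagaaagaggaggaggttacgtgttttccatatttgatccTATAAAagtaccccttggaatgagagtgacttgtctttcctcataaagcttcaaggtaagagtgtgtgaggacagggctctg
Myh7: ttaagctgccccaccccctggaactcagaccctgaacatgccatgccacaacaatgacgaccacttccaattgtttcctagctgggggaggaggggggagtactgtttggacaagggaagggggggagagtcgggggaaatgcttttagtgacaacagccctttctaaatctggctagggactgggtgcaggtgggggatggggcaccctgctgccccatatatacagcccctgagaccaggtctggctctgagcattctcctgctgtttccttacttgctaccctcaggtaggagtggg
They cover chr11:67078050-67078349 on the forward strand, chr11:67199852-67200151 on the forward strand and chr14:54994500-54994799 on the reverse strand. Myh7 had another window that begins at a second annotated start, chr14:54994577-54994876. In Myh3 the forward TATAAA began 29 bases before the start, in Myh1 it began 32 bases before, and in Myh4 31 bases before. On either strand TATAAA was present in 13.6% of all 32851 promoter windows, and among the chains it was absent from the windows of Myh7 and Myh7b. The MEF2 motif was present in 3.19% of all windows and in those of Myh8, Myh1 and Myh4, where the match overlapped a reverse-strand TATAAA. The E-box CANNTG, found in 72.3% of all windows, matched in Myh3, Myh8, Myh4, Myh7, Myh6 and Myh7b, and its form CAGCTG (16.3% of all windows, counted within CANNTG too) matched in Myh4. A CArG box, found in 1.63% of all windows, also matched in Myh4. These matches describe letters in the windows, and no binding was measured.

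Some of the cluster genes also shared longer strings. The string shared by Myh1, Myh2 and Myh4 held the 14-base core, in capitals, that Myh8 had as well, and another string was shared by Myh1, Myh4 and Myh8.
shared by Myh1, Myh2 and Myh4: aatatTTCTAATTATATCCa
shared by Myh1, Myh4 and Myh8: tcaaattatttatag
The core began 160 bases before the start in Myh1, 125 in Myh2, 158 in Myh4 and 54 in Myh8. Among the 32851 windows the first string was found in 3, the other in 3 and the core in 4, those of the named genes. The window of Myh3 held neither. CpG pairs, the sites that DNA methylation uses, numbered 4 in the window of Myh3, 6 in Myh8, 3 in Myh1, 9 in Myh2, 1 in Myh4, 2 in Myh6 and 4 in Myh7b, and 2 and 5 in the windows of Myh7, beside a median of 7 over all windows. Methylation was not measured.

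The 8 chains together were nearly absent before treatment and abundant after it. Their summed level was 0.0652 and 0.0589 FPKM in untreated replicates 1 and 2, and 44.9 and 68.1 FPKM in 5-AZA replicates 101 and 102. Both 5-AZA samples lay far above both untreated samples. Limma on log2(FPKM + 0.1), fitted over all genes with a mean of at least 0.1 FPKM, called 7 of the 8 chains higher (adjusted p below 0.05 and a change over 2-fold) and 0 lower, while Myh7b was not tested. By the same rule 13.1% of the 13199 genes tested were higher (1724 genes) and 1.32% were lower (174 genes), with a median change over all genes of 0.05 in log2. All 7 tested chains passed the limit on low values through the 5-AZA samples alone, so they had to differ, and their number supports nothing. Of the 890 tested genes with under 0.1 FPKM in both untreated samples, 82.8% were called higher. The split between higher and lower genes depended on scaling, since quantile normalization gave 1041 higher and 886 lower, and the median change over all genes was -0.06 after centring and -0.12 after quantile normalization. Without 5-AZA replicate 101 the calls over all genes came to 977 higher, and without replicate 102 to 785, while 7 chains were called with any sample left out.

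**Figure D1:**
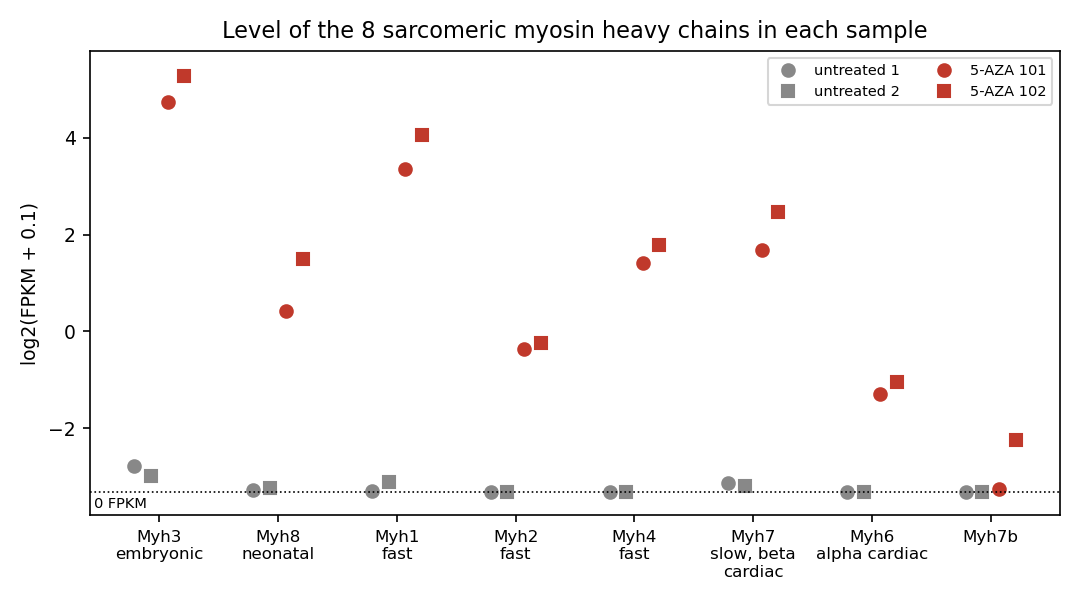
Level of each chain in each sample, as log2(FPKM + 0.1), with grey points for untreated samples, red points for 5-AZA samples and a dotted line at 0 FPKM. The red points lie above the grey points for all 8 chains, and Myh7b in replicate 101 is close to the line at 0.0043 FPKM.

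The paper calls the replicates biological repeats, but the labels do not say whether they came from separate cultures. The p-values therefore measure only the spread between these samples. With 2 samples a group the smallest two-sided permutation p is 0.333. In RNA from whole cultures, more cells of a type and more RNA per cell cannot be told apart.

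Myh3, the chain of embryonic fibres, had the highest level when all its transcripts were counted. It measured 0.046 and 0.0265 FPKM in the untreated replicates and 26.8 and 38.8 FPKM in the 5-AZA replicates. Both treated samples were high, with no overlap. The difference in log2(FPKM + 0.1) was 7.89 (SE 0.244, limma adjusted p = 3e-07), rank 13 of 13199 genes when ordered from the largest rise. Myh8, the neonatal chain that follows it in development, measured 0.00338 and 0.00653 FPKM untreated and 1.25 and 2.7 FPKM after 5-AZA. Its groups did not overlap, and replicate 102 was 2.17 times replicate 101, the widest gap between treated replicates among the tested chains. Its difference was 4.21 (SE 0.405, limma adjusted p = 0.00011). Myh3 was 21.5 and 14.3 times Myh8 in FPKM in the treated samples, and 2.84 and 1.98 times with curated transcripts alone.

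Among the adult fast chains, Myh1 (IIx) led. It measured 0.0016 and 0.0156 FPKM untreated, and 10.2 and 16.6 FPKM after 5-AZA. The groups lay apart, and the difference was 6.92 in log2(FPKM + 0.1) (SE 0.296, limma adjusted p = 1.35e-06), rank 29. Myh4 (IIb) measured 0 and 0.000467 FPKM untreated and 2.57 and 3.35 FPKM after 5-AZA. Only the treated samples held a level above 0.1 FPKM, and the difference was 4.92 (SE 0.309, limma adjusted p = 8.99e-06). Myh2 (IIa) measured 1.8e-07 FPKM in untreated replicate 1, a still smaller value in replicate 2, and 0.683 and 0.748 FPKM after 5-AZA. Its treated replicates were the closest to each other of any chain, at a ratio of 1.1, and the difference was 3.03 (SE 0.355, limma adjusted p = 0.000345). With a pseudocount of 1 FPKM this became 0.78, under the 2-fold limit. The order among fast chains, IIx above IIb above IIa, was the same in both treated samples without overlap.

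Myh7, the chain of slow fibres and the beta chain of heart, measured 0.0141 and 0.0098 FPKM untreated and 3.12 and 5.44 FPKM after 5-AZA. The groups were well separated, and the difference was 5.24 (SE 0.337, limma adjusted p = 1.05e-05). Myh6, the alpha cardiac chain, was below 1e-30 FPKM in untreated replicate 1 and 0 in replicate 2, against 0.309 and 0.385 FPKM after 5-AZA. It was low even in the treated samples, and its difference of 2.16 (SE 0.388, limma adjusted p = 0.00389) was the smallest of the tested chains. It fell to 0.43 with a pseudocount of 1 FPKM, under 2-fold, and to 0.91 after quantile normalization, where limma gave an adjusted p of 0.0709, within a range of 0.00122 to 0.0709 over the settings in which Myh6 was tested. Myh7 was 10.1 and 14.1 times Myh6 in the treated replicates. With curated transcripts alone Myh7 measured 2.14 and 4.18 FPKM and Myh6 0.188 and 0.048 FPKM, a far wider ratio in replicate 102. Myh7b was 0 in both untreated samples and 0.0043 and 0.112 FPKM after 5-AZA. Its level rested on replicate 102, and its mean over the 4 samples, 0.029 FPKM, was under the limit for testing.

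Because the untreated levels were at or near 0, the size of each difference depends on the pseudocount. For Myh3 it ran from 5 with 1 FPKM to 9.48 with 0.01 FPKM, and for Myh1 from 3.8 to 9.56. The ranks above are therefore ranks at 0.1 FPKM, where a chain's difference mostly follows its level after treatment.

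**Figure D2:**
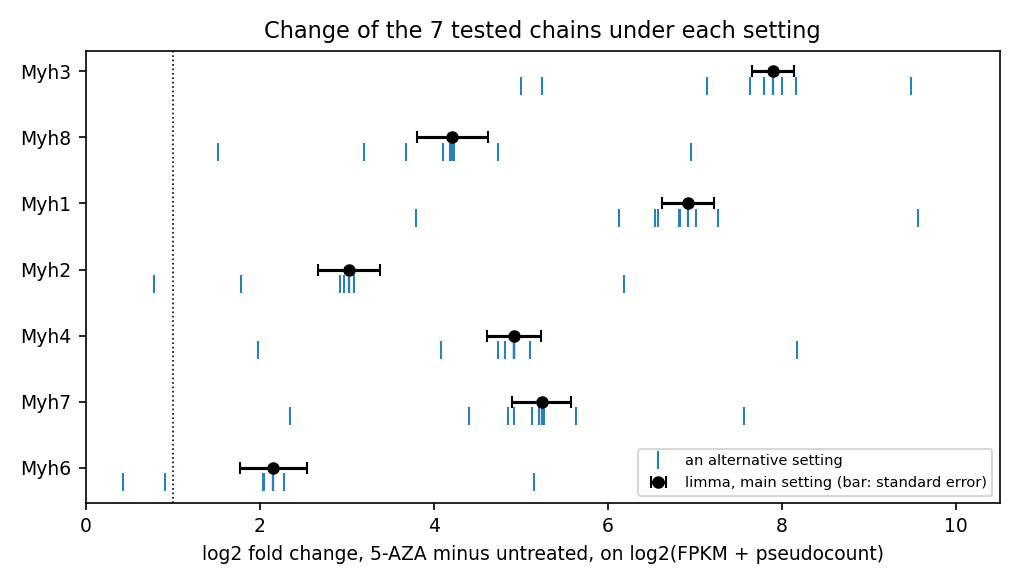
Log2 difference (5-AZA minus untreated) of the 7 tested chains, with black points and standard error bars for the limma fit, blue marks for the alternative settings and a dotted line at the 2-fold limit. Only Myh2 and Myh6 have marks left of that line.

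The chains shared their order in the treated samples. From high to low it was Myh3, Myh1, Myh7, Myh4, Myh8, Myh2, Myh6 and Myh7b in FPKM with all transcripts counted, in replicate 101 and in replicate 102. Myh3 was 2.63 and 2.34 times Myh1, and Myh1 was 3.26 and 3.05 times Myh7. Neighbours from Myh7 to Myh8 were not separated by the spread between replicates, since the levels of Myh7 and Myh4 overlapped, as did those of Myh4 and Myh8. The other neighbouring pairs did not overlap. The levels were higher in replicate 102 than in replicate 101 for all 8 chains, and among the 5 chains with at least 1 FPKM in both, the median ratio of 102 to 101 was 1.63. Over all 10831 tested genes with such levels it was 1.11, and 8322 of them were higher in replicate 102. Among listed genes with such levels the median was 1.63 for skeletal muscle markers, 1.66 for chondrocyte markers and 1.42 for adipocyte markers. It was 1.12 for regulators of chain choice, so higher levels in replicate 102 were not particular to the chains. With curated transcripts alone Myh6 was lower in replicate 102, at 0.188 and 0.048 FPKM in replicates 101 and 102.

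As a share of the summed FPKM of the 8 chains, Myh3 made up 59.6% in replicate 101 and 56.9% in replicate 102. The fast chains together made up 29.9% and 30.4%, of which Myh1 was 22.7% and 24.4%, Myh4 5.71% and 4.92%, and Myh2 1.52% and 1.1%. The proportions were thus close in both treated samples although the totals differed. Myh7 held 6.95% and 7.99%, Myh8 2.78% and 3.97%, Myh6 0.688% and 0.566%, and Myh7b 0.00958% and 0.164%. Shares of the summed level in the untreated samples are not described, since their totals were under 0.1 FPKM.

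Most of the Myh3 level lay on a predicted transcript. The predicted transcript XM_006532412.1 measured 23.3 and 33.4 FPKM after 5-AZA and held 86.8% and 86.2% of the Myh3 level. The curated transcript NM_001099635.1 measured 3.54 and 5.35 FPKM. In the untreated samples the same rows were nearly equal, with 50.4% and 50.2% of Myh3 on the curated transcript. These rows were under 0.1 FPKM, and the untreated rows of Myh1 were nearly equal too, with 49.9% and 49.5% on the curated transcript. An even split at such levels cannot show a change of transcript after 5-AZA. For Myh1 the curated NM_030679.1 led with 7.83 and 11.8 FPKM, against 2.37 and 4.79 FPKM for the predicted XM_017314318.1. For Myh7 the curated NM_080728.2 measured 2.14 and 4.18 FPKM, and its other rows stayed under 1 FPKM.

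With predicted transcripts left out, the order of classes turned. This removed most of Myh3, 23.2% and 28.9% of Myh1 and nothing of Myh2, Myh4 and Myh8. It left 68.7% and 76.9% of Myh7 and 99.9% and 13.2% of Myh7b, and the curated part of Myh6 is given below. The embryonic share fell to 19.5% in replicate 101 and 19% in replicate 102, and the fast share came to 60.8% and 56.4%. The neonatal share became 6.85% and 9.59%, and the slow share 11.8% and 14.8%. Whether Myh3 or Myh1 had the highest level thus depends on whether the fragments on the predicted Myh3 transcript are counted. Leaving out predicted transcripts drops their fragments and does not divide them anew among the curated ones. It lowers only the genes that have predicted transcripts, so the curated shares are not a second estimate of gene levels. The 5 cluster genes, and Myh6 with Myh7, are close relatives in sequence, and the quantifier divides fragments that match several transcripts, so the levels of single chains, above all of the low Myh2, Myh6 and Myh7b, are uncertain to a degree that the deposited values cannot show. Within Myh6, the curated transcripts held 26.9% and 34.1% of the gene in replicate 101 and 5.47% and 7% in replicate 102.

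**Figure D3:**
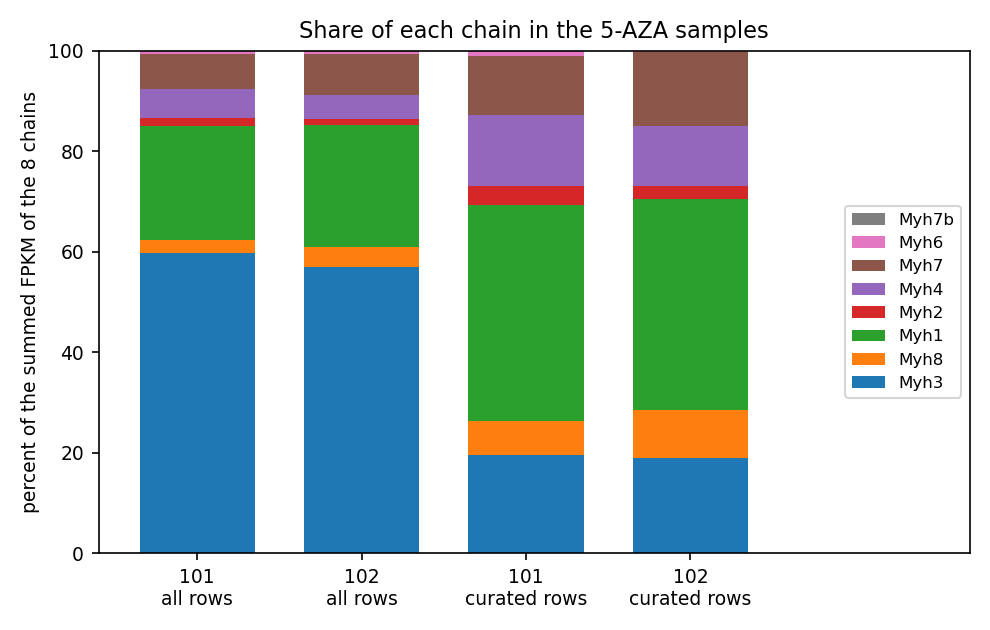
Share of each chain in the summed FPKM of the 8 chains, in 5-AZA replicates 101 and 102, from all transcript rows and from curated transcripts alone. Myh3 fills most of the bars from all rows, and Myh1 is the largest part of the bars from curated transcripts.

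Fitted transcript by transcript, limma tested 10 of the 22 chain rows and called 7 higher, where 2.10% of the 35557 transcript rows tested were called higher. The 10 passed the limit on low values through the 5-AZA samples alone, so this number supports nothing either, and of the 2592 tested rows with under 0.1 FPKM in both untreated samples 11.7% were called higher. The 7 were both rows of Myh3, both rows of Myh1, and the curated rows of Myh8, Myh4 and Myh7. The row of Myh2 (NM_001039545.2) had a limma adjusted p of 0.0807, and the 12 rows of Myh6 and Myh7b were under the limit for testing. These calls depended on single samples, since most or all of them were lost with any sample left out. In those fits few or none of the 35557 rows were called, so the loss was general and not particular to the chains.

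Levels did not follow position along the cluster. With all transcripts counted, Myh3 at its start was the highest, Myh2 next to it (92.8 kb from the start of Myh3) was the lowest of the 5 members, and Myh1, beginning 121.8 kb from that point, was second. With curated transcripts alone Myh1 (7.83 and 11.8 FPKM) was above Myh3 (3.54 and 5.35 FPKM). Myh13, the chain of extraocular muscle at the far end, was 0 in both untreated samples and 0.0605 and below 1e-30 FPKM after 5-AZA.

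**Figure D4:**
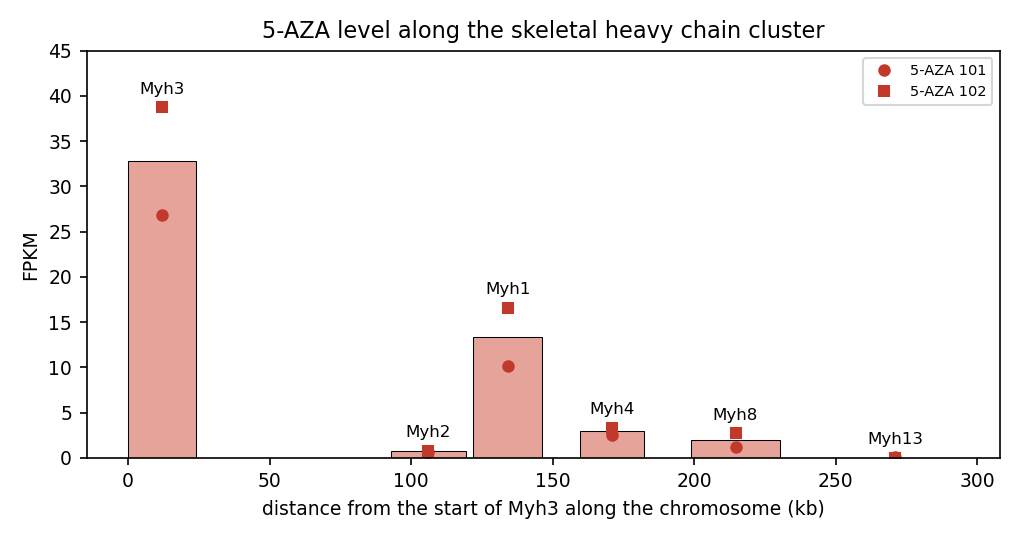
Level after 5-AZA (FPKM) of the genes of the chromosome 11 cluster, drawn at their distance from the start of Myh3 in kb, with bars for the mean of the 2 treated samples, all transcripts counted, and points for each. Myh3 and Myh1 stand above the others, and Myh13 is near 0.

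Long noncoding RNAs near the chains had low levels. Over the whole lncRNA table, 64610 had a mean above 0, and 24075 had a mean of at least 0.1 FPKM. Of 22 listed within 5000 bases of a chain, 16 were 0 in all samples, 1 reached 0.1 FPKM in a sample (highest value 0.158 FPKM) and 0 had the mean of 0.1 FPKM needed for a limma test, so no call could be made. With no limit on low values 6 were tested, but in that fit limma called 0 of all 64610 lncRNAs tested, so it says nothing about these 6, of which 0 had an unadjusted p below 0.05 and a change over 2-fold. Of 4295 circular RNAs, 1 had a chain as its host. It was listed under Myh2 and spanned chr11:67181035-67246541, from within Myh2 across Myh1 into Myh4, with a level of 0.0431 RPM (reads scaled to library size) in 5-AZA replicate 101 and 0 in the other samples. A single sample at that level is a value and not a difference between groups. The smallest level above 0 of any circRNA in that sample was 0.0215 RPM. Its ends were placed in Myh2 and Myh4, which are close relatives in sequence, and that placing was not tested.

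Some chain genes enclose miRNAs on the same strand, which these files do not measure. The mature RefSeq sequences of the best known of them are given with seeds (bases 2 to 8) in capitals, because those of Myh6 and Myh7 share a seed.
miR-208a-3p in Myh6: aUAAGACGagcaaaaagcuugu
miR-208b-3p in Myh7: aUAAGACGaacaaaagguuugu
miR-499-5p in Myh7b: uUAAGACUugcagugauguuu
In GRCm38.p6 they lie at chr14:54949072-54949093, chr14:54975710-54975731 and chr2:155622893-155622913. Of these host genes, Myh7 had the highest level after 5-AZA, Myh6 was low and Myh7b was barely present, as given above.

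Nonmuscle cells also contain class II heavy chains, which serve the cytoskeleton. Myh9 measured 100.4 and 91.7 FPKM untreated and 75 and 90.1 FPKM after 5-AZA, and Myh10 measured 17.3 and 14.1 against 12.2 and 12 FPKM. The groups did not overlap, with log2 changes of -0.22 and -0.37, but neither passed the test (limma adjusted p = 0.212 and 0.0815). Set against these nonmuscle chains, the 8 sarcomeric chains made up 0.0553% and 0.0556% of the sum of all 10 genes in the untreated samples and 34% and 40% after 5-AZA. Of the 6 other class II chains, 3 were tested and 0 were called in either direction, beside 13.1% higher and 1.32% lower over all genes tested. Among so few genes this says little, and 0 were higher and 1 lower at an unadjusted limma p below 0.05 and over 2-fold. That 1 was Myh14, at 0.292 and 0.501 FPKM untreated and 0.108 and 0.118 FPKM after 5-AZA, with a log2 change of -1.19 (limma adjusted p = 0.0504), and it was called lower after centring, after quantile normalization and without the eBayes trend. The median change of the 3 was -0.37, beside 0.05 over all genes tested.

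Myosin heavy chains work with light chains bound to the neck of the motor. Of 7 striated light chain genes, 5 were tested, and 4 of them rose and 0 fell, at a median change of 7.36 in log2. The shares over all genes tested were 13.1% higher and 1.32% lower. Mylpf, the fast regulatory light chain, measured 0.392 and 0.376 FPKM untreated and 352.9 and 516.8 FPKM after 5-AZA, a difference of 9.79. Myl1, the fast essential light chain, measured 0.215 and 0.517 against 219.6 and 307.6 FPKM. Myl4, the embryonic and atrial light chain, measured 1.32 and 1.19 against 185.2 and 267 FPKM. Myl6b rose by 3.67, a call lost with no limit on low values (limma adjusted p = 0.0615) and without 5-AZA replicate 101 or 102 (limma adjusted p = 0.12 and 0.142, against 0.000218 with all samples and a highest value of 0.142 over the settings). The cardiac and slow light chain Myl2 was 0 untreated and 0.519 and 0.0493 FPKM after 5-AZA and was not called, but it was called at 2.63 without replicate 102 and at 4.15 with a pseudocount of 0.01 FPKM. Myl3 and Myl7, light chains of slow muscle and heart and of atrium, were 0 in all samples. The 3 most abundant light chains were thus those of fast and developing muscle. Summed light chain FPKM was 17 and 16.1 times the summed heavy chain FPKM in the treated samples.

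Other proteins bind the thick filament or join it at the M band. Of 10 genes, 8 were tested and all 8 rose, at a median change of 4.32, beside 13.1% higher and 1.32% lower over all genes tested. But 6 of the 8, Mybph and Ttn included, had an untreated mean under 0.1 FPKM. These 6 passed the limit on low values through the 5-AZA samples alone, so they had to differ. Mybpc3 (at most 0.00733 FPKM) and Mybphl (0 in all samples) were not tested. Myom2, an M band protein of fast fibres, measured 0.2 and 0.212 FPKM untreated and 10.4 and 15.2 FPKM after 5-AZA. Mybph, a myosin binding protein, was 0 in both untreated samples and 10.7 and 14.8 FPKM after 5-AZA. Myom1 rose by 3.27 and Ttn, the giant spring protein of the sarcomere, by 6.13 in log2. Groups did not overlap for any of these 4 genes, but Mybph and Ttn had to differ, and the share of such genes over all genes was not counted.

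Genes for the folding, assembly and turnover of myosin differed among themselves. Of 10 tested, 6 rose and 0 fell, at a median change of 2.42, beside 13.1% higher and 1.32% lower over all genes tested. Of the 6, Smyd1, Trim55 and Unc45b passed the limit on low values through the 5-AZA samples alone. The general chaperones Hsp90ab1 and Hsp90aa1 were abundant in all samples, with Hsp90ab1 at 677.2 and 626.1 FPKM untreated and 552.6 and 651.8 FPKM after 5-AZA and Hsp90aa1 changing by 0.20. The general myosin chaperone Unc45a measured 7.35 and 6.75 against 5.54 and 7.49 FPKM, with overlap. The muscle form Unc45b measured 0.138 and 0.0324 against 4.6 and 6.88 FPKM, and Smyd1, which works with it in thick filament assembly, measured 0.0218 and 0.0957 against 7.28 and 11.4 FPKM. The small heat shock protein genes went apart, since Hspb1 measured 0.0499 and 0.187 against 6.21 and 9.17 FPKM while Cryab measured 78.4 and 81 FPKM untreated and 45.1 and 54.6 FPKM after 5-AZA, a change of -0.68 that was under 2-fold in size (limma adjusted p = 0.00257). The ubiquitin ligase genes Trim54, Trim55 and Trim63 were also called higher, and the call for Trim63 was lost under 5 settings, among them without replicate 101 or 102. The 6 called were 3 without replicate 101 and 3 without replicate 102, and Unc45b, Hspb1 and Trim63 were those lost, Unc45b with limma adjusted p = 0.0578 and 0.0722 (highest of any setting 0.0722).

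**Figure D5:**
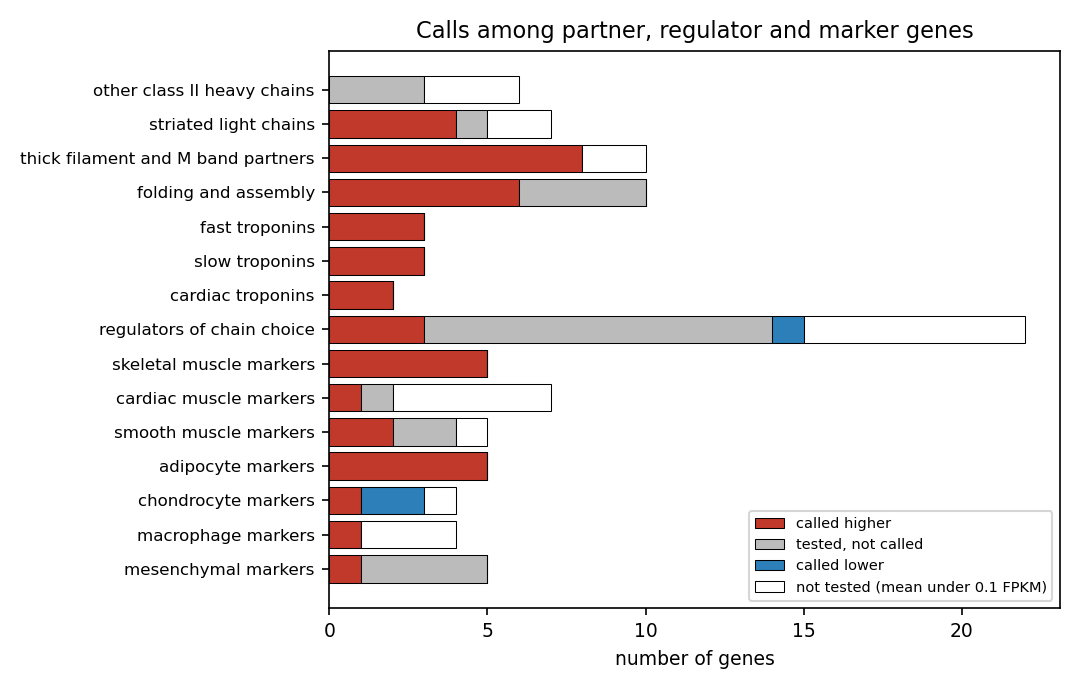
Number of genes called higher, called lower, tested without a call and not tested in each list of partners, regulators and markers. Of the 15 regulators tested, 11 are not called, and a red bar includes genes that passed the limit on low values through the 5-AZA samples alone, such as 6 of the 8 M band and thick filament partners.

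Troponins, which switch the thin filament, come in fast, slow and cardiac forms and offer a comparison with the heavy chains. Their counts stand beside 13.1% higher and 1.32% lower over all genes tested. The 3 fast troponin genes all rose (median change 8.74, Tnni2 passing the limit on low values through the 5-AZA samples alone), led by Tnnc2 at 0.225 and 0.106 FPKM untreated and 127.6 and 180.2 FPKM after 5-AZA. The 3 slow troponin genes all rose (median change 5.90), and the slow and cardiac Tnnc1 measured 2.79 and 0.882 against 142.5 and 197 FPKM. The call for Tnnc1 was lost without replicate 101 or 102 (limma adjusted p = 0.0813 and 0.0953, the latter the highest of any setting), and without replicate 102 just 1 slow gene was called. Both cardiac troponin genes rose as well (median change 4.15). Tnnt2, used by heart and by embryonic skeletal muscle, measured 0.385 and 0.618 against 28.3 and 43.1 FPKM. Tnni3, the inhibitory subunit of adult heart, measured 0.321 and 0.273 against 1.27 and 3.12 FPKM, and its call was lost without replicate 102 (limma adjusted p = 0.06, with a highest value of 0.106 without a limit on low values). Within each treated sample, in the troponins as in the heavy chains, fast forms summed to more FPKM (282.7 and 408.3) than slow forms (215.4 and 310.5) after 5-AZA.

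Of 22 regulators of chain choice, 15 were tested, 3 rose and 1 fell, beside 13.1% higher and 1.32% lower over all genes tested, and their median change of 0.07 was close to that of all genes. So few calls say little about the list, and 2 of the 3 that rose, Myog and Myod1, passed the limit on low values through the 5-AZA samples alone. The 3 were Myog, Mef2c and Myod1. Myog, the myogenic factor of differentiating muscle cells, measured 0.0806 and 0.101 FPKM untreated and 33 and 52.4 FPKM after 5-AZA. Mef2c, a partner of the myogenic factors, measured 6.04 and 5.53 against 13.3 and 15 FPKM, a call lost without replicate 102 (limma adjusted p = 0.0632). Myod1, which specifies muscle cells, was 0 untreated and 0.512 and 1.23 FPKM after 5-AZA, a call lost with a pseudocount of 1 FPKM or with no limit on low values, and its kin Myf5 and Myf6 were 0 in all samples. Sox6, a repressor of slow fibre genes such as Myh7, measured 7.94 and 8.45 FPKM untreated and 2.5 and 3.54 FPKM after 5-AZA. It was lower in both treated samples, with a log2 change of -1.43 (SE 0.194, limma adjusted p = 0.000791), and this call was lost without replicate 101 (adjusted p = 0.0567 in limma, with a highest value of 0.0593 without a limit on low values). Eya4, a transcriptional coactivator, measured 42.6 and 43.1 against 36.5 and 33.2 FPKM. Its groups did not overlap, but the log2 change of -0.30 was not called, and with curated transcripts alone it turned to 2.17. Mef2a changed by 0.65.

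By the distance between profiles of log2(FPKM + 0.1) over the 4 samples, each less its own mean, the genes most like the summed chains were Ckm (distance 0.248), Tnnt3 (0.348), Actc1 (0.46), Tnni2 (0.488) and Cox7a1 (0.499), of 10826 candidates. Ckm, the muscle creatine kinase, measured 0.0888 and 0.082 FPKM untreated and 43.6 and 65.2 FPKM after 5-AZA. Actc1, the cardiac actin that embryonic skeletal muscle also uses, measured 0.0515 and 0.0728 against 61.6 and 89.2 FPKM. Such a distance over 4 samples mostly reflects the size of the difference.

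Markers of cell types stood beside the chains as follows, and their part in the chain levels was not tested. Counts in all marker lists are to be read beside 13.1% higher and 1.32% lower over all genes tested. The 5 skeletal muscle markers all rose (median change 7.77), with sums of 0.873 and 0.556 FPKM untreated and 277.3 and 460.7 FPKM after 5-AZA, of which Acta1, skeletal actin, was the most abundant. Ckm, Myog and Myod1 passed the limit on low values through the 5-AZA samples alone, and the call for Des was lost without replicate 102 (limma adjusted p = 0.0528, the highest of any setting) and that for Myod1 as given above. Of 7 cardiac muscle markers, 2 were tested, and Tnni3 was called, as above. The natriuretic peptide genes Nppa and Nppb and the atrial light chain gene Myl7 were 0 in all 4 samples, Nkx2-5 and Ryr2 were under 0.1 FPKM in every sample, and Gata4, the most abundant, measured 2.13 and 2.17 against 2.02 and 3.09 FPKM. The cardiac troponin genes Tnnt2 and Tnni3 rose, as given above, so genes used by heart muscle did not all go one way, and the source of Myh6 and Myh7 was not tested.

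Of 5 smooth muscle markers, 2 of 4 tested were called higher, with sums of 193.3 and 197.8 against 213.3 and 296.3 FPKM, mostly Acta2, and without replicate 102 the called number was 1. Of the called genes, Cnn1 passed the limit on low values through the 5-AZA samples alone, as did Cidec among the adipocyte markers. Myh11, the smooth muscle heavy chain, stayed at or below 0.152 FPKM. The 5 adipocyte markers all rose (median change 6.10), where 13.1% of all genes tested were higher and 1.32% lower. The sums of the 5 were 31.5 and 14.2 FPKM untreated and 1072 and 1468 FPKM after 5-AZA, mostly Fabp4. Without replicate 101 or 102, 2 of these were called. Of 4 chondrocyte markers, Col2a1 (67.5 and 57.1 against 4.13 and 6.84 FPKM) and Col9a1 (25.2 and 23.6 against 5.06 and 8.45 FPKM) were called lower, the call for Col9a1 being lost with no limit on low values (limma adjusted p = 0.0665, the highest of any setting). Comp was called higher, a call lost without replicate 101 or 102 (limma adjusted p = 0.0516 and 0.0803, the latter the highest of any setting) and with no limit on low values (limma adjusted p = 0.0617). The chondrocyte sums were 94 and 82 against 12.2 and 19.8 FPKM. Of 4 macrophage markers, Adgre1 was 0 in all samples, Ptprc was 0.0631 FPKM in replicate 101 and 0 elsewhere, and Cd68, the most abundant, was called at 1.09, a call lost under 9 settings. The macrophage sums were 1.17 and 1.5 against 2.4 and 3.74 FPKM. Of 5 mesenchymal markers, Thy1 was called higher and the others were not called. Col1a1 measured 118 and 92.4 FPKM untreated and 64.1 and 83 FPKM after 5-AZA (log2 change -0.52, limma adjusted p = 0.0402). Ly6a, Eng and Pdgfrb went the other way, with log2 changes of 0.73, 0.80 and 0.30 (limma adjusted p = 0.000912, 0.0297 and 0.0653). The sums were 341.4 and 308.6 against 441.7 and 430.7 FPKM, mostly Ly6a. The treated samples thus held more RNA of adipocyte markers as well as of the chains.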

How the data were processed

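RNA of 2 untreated and 2 5-AZA treated samples of C3H10T1/2 cells was sequenced after removal of ribosomal RNA. The submitters' processing notes name Trimmomatic, HISAT2, Bowtie2 2.2.9, eXpress 1.5.1 and the mm9 build. The authors deposited FPKM values per transcript for mRNAs and lncRNAs, with a length and an exon number for each lncRNA, and RPM values for circRNAs. Counts and library sizes are not in the files, so the depth is unknown. FPKM sums of all mRNA rows were 343955 and 334568 in the untreated samples and 328410 and 361664 after 5-AZA. The count-based test that the study's methods name needs counts, so limma 3.58.1 in R 4.3.3 (with the package data.table, version 1.17.8) was used on log2(FPKM + 0.1), with eBayes trend, a mean of at least 0.1 FPKM and Benjamini-Hochberg adjustment over all features tested, and it was tested on simulated data. Promoters, miRNAs and figures used Python 3.11.15 and matplotlib 3.10.9. 0 sample columns were left unused.

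Members and lists were chosen with earlier results of these data known. The lists were other class II heavy chains, striated light chains, thick filament and M band partners, folding and assembly genes, fast, slow and cardiac troponins, regulators of chain choice, and markers of skeletal, cardiac and smooth muscle, adipocytes, chondrocytes, macrophages and mesenchymal cells. Tnni3, Myl7, Myh11, Myog and Myod1 were each in more than 1 list. Named were the 8 chains, their transcripts with at least 1 FPKM in a sample, up to 4 genes of each list with the largest mean FPKM plus every gene called lower, and the 5 genes most like the summed chains. Other named genes and transcripts (Myh13, Myl2, Myl3, Myl7, Unc45b, Smyd1, Mef2c, Myod1, Myf5, Myf6 and markers at or near 0, among them) were chosen after their values were seen. Alternatives were pseudocounts of 1 and 0.01 FPKM, no limit on low values or a mean of 1 FPKM, median centring, quantile normalization, eBayes without trend, leaving out each sample, and curated (NM) transcripts alone. In a fit with a sample left out, the lone sample of a group is assumed to vary like the other group. Protein sequences were not available, so no protein comparison was made.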

Additional observations from a re-analysis of the deposited data

How the results depend on the processing

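The count of 7 chains called higher ranged from 5 to 7 under the alternatives other than a mean of at least 1 FPKM, where 4 chains were left to test and all 4 were called (Myh1, Myh3, Myh4 and Myh7). It was 5 with a pseudocount of 1 FPKM (without Myh2 and Myh6), 6 after quantile normalization (without Myh6), 6 with curated transcripts alone, where Myh6 was not tested, and 7 with any sample left out. The count of chain transcripts called higher, 7, became 0 with no limit on low values, where limma called 0 of 66285 transcript rows and 11 chain rows had an unadjusted p below 0.05 and a change over 2-fold. With a sample left out the count fell sharply, as it did over all transcript rows, and otherwise it ranged from 6 to 8. With curated transcripts alone the mean shares in the 5-AZA samples moved to 19.2% embryonic (from 58.3%), 8.22% neonatal (from 3.37%), 58.6% fast (from 30.2%) and 13.3% slow (from 7.47%). That setting drops the fragments on predicted transcripts and does not divide them anew. The change of Eya4 turned from -0.30 to 2.17 with curated transcripts alone, and the cause was not tested. Over all genes, 1724 higher and 174 lower became 875 and 86 with a pseudocount of 1 FPKM, 845 and 122 with a mean of at least 1 FPKM, 1179 and 83 with no limit on low values, 1602 and 252 after centring, 1041 and 886 after quantile normalization, 977 and 50 without 5-AZA replicate 101, and 785 and 66 without 102. Of 947 changes of named and listed genes recomputed under the alternatives, 889 kept their side of the threshold (called changes with their direction), 52 lost the call, 5 gained it and 1 turned. No lncRNA near the chains was tested except for 6 with no limit on low values, where limma called 0 of all 64610 lncRNAs tested, so these alternatives say nothing about them (0 of the 6 had an unadjusted p below 0.05 and a change over 2-fold). The number of samples, the unknown depth and the similarity of the transcripts limit the values.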
